A study of Homo sapiens and Mus musculus with 36 samples.

Results

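HepG2, an established human hepatoblastoma line that still makes many liver plasma proteins, was infected with a lentivirus carrying a hairpin RNA against EZH2 or a control, and RNA was sequenced. The 2 groups described here are the libraries labelled shEZH2 and the libraries labelled shControl, with 2 libraries each, so 4 of the 36 libraries in the series. Both groups carried a pLKO.1-puro lentivirus and went through puromycin selection in RPMI1640 with 10% FBS, and the control is called an empty vector in one place of the labels and a scramble in another. No label ties the libraries of a group to separate infections or cultures, so the p-values reflect only how these libraries scatter, which may be technical. Of 2 library kits named in the labels, which one made which library is not given. Values per library are not in the table used here, which gives 1 fold change for each gene, so neither the value in each library nor the effect of leaving one out can be shown. The comparison asked what changes when EZH2 is depleted.

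Of 17348 genes in the table, 16094 had a mean of at least 10 normalized counts and are the genes tested. The gene just under that limit, AL773545.3, had a mean of 9.996, and the gene just over it, RHD, had 10.0006. Every log2 fold change, standard error (SE) and adjusted p below is from the authors' deposited table unless a difference between tables is named, and "rose", "fell", "higher" and "lower" of a gene mean an adjusted p under 0.05 there. Levels in each group were rebuilt from the deposited mean and fold change, in normalized counts, which do not correct for gene length.

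EZH2 is the catalytic subunit of Polycomb repressive complex 2 (PRC2), which methylates lysine 27 of histone H3 and keeps many developmental genes silent. SREBP2, encoded by SREBF2, is a membrane-bound transcription factor that is released when cell sterol is low and switches on the enzymes of cholesterol synthesis. The liver is a main site of both cholesterol synthesis and lipoprotein secretion, and the series also used hairpins against SREBP2.

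EZH2 mRNA was not lowered in the libraries labelled shEZH2. Its rebuilt level went from 854 to 1597 normalized counts, a log2 fold change of 0.90 ± 0.38 (SE, 2 libraries a group) with an adjusted p of 0.0337 in the authors' deposited table, and a 95% interval of 0.15 to 1.65. EZH2 lies on the minus strand of chromosome 7 at 148807383 to 148884321 (GRCh38, GENCODE 29). Its standard error was 4.12 times that of genes with a similar mean, and 40 of the 11653 genes whose mean reached 100 had a larger excess. With the summed rebuilt levels of the 2 groups scaled to equal totals, which shifts every gene alike, the EZH2 value was 0.56 and no longer passed the test. In Huh7, another human liver cancer line, the libraries labelled shEZH2 had EZH2 at -2.66 against their own control in the authors' deposited table. The 2 estimates differed by 3.56 ± 0.40 (SE; adjusted p = 8.71e-18 by a normal test of the difference between the deposited values). The table does not show which part of the EZH2 transcript the reads came from, and protein was not measured here, so the results below describe libraries by their label and not by a measured loss of EZH2.

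SREBF2 also had an unusually wide error. It went from 3753 to 5070 normalized counts, at 0.43 ± 0.35, which did not pass the test (adjusted p = 0.288 in the authors' deposited table), and its standard error was 6.26 times the trend. The 3 SREBP2 hairpins, numbered 664, 665 and 667, were compared with the same control libraries, so their values are given side by side without a test. In the authors' deposited tables for those hairpins SREBF2 stood at -1.58, -1.08 and -2.35, and EZH2 at -0.43, 0.11 and -0.31. The standard error of EZH2 in those tables was 1.10, 1.01 and 1.47 times the trend, and that of SREBF2 1.09, 1.16 and 3.76 times.

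**Figure D1:**
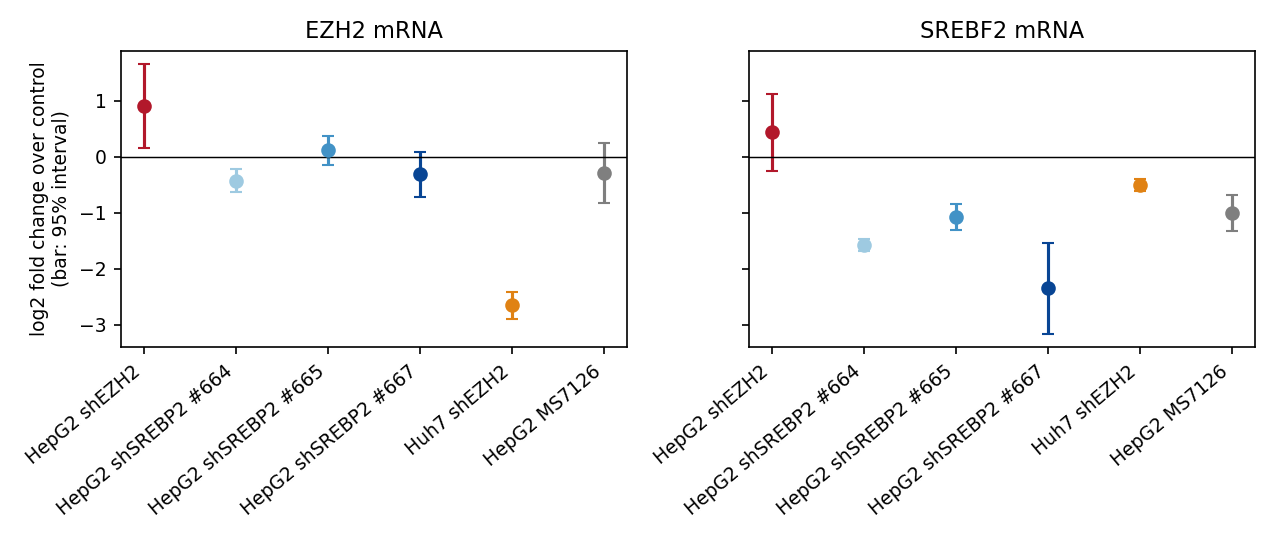
Log2 fold change of EZH2 (left) and SREBF2 (right) mRNA over the matching control in 6 deposited tables, with 95% intervals as bars. The HepG2 libraries labelled shEZH2 have EZH2 above 0 at 0.90, while the Huh7 libraries with that label have it at -2.66.

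The libraries stand apart from their control across most of the transcriptome. The authors' deposited table had 4807 genes higher (29.9%) and 4921 lower (30.6%), and 2295 (14.3%) and 1188 (7.38%) of them also changed at least 2-fold. Of the 12661 protein-coding genes 28.5% were higher and 35.8% lower. All 13 measured protein genes of the mitochondrial genome were higher, with log2 fold changes of 1.82 to 3.14, and mitochondrial transcripts made up 5.23% of summed rebuilt levels in the control and 22.9% in the libraries labelled shEZH2. MALAT1 and NEAT1, long RNAs kept in the nucleus, were at 2.97 and 2.94, and RN7SK and RMRP, small structural RNAs, at 2.29 and 2.89 in the authors' deposited table. Among protein-coding genes whose mean reached 100, split into 5 equal groups by transcript length, the median log2 fold change was -0.28 in the group with the shortest transcripts and 0.11 in that with the longest. Of 973 antisense RNAs 322 were higher and 88 lower, and of 649 long intergenic RNAs 218 were higher and 52 lower. The SREBP2 hairpin tables, which share the control libraries, gave mitochondrial protein genes a median of 1.72, 2.03 and 1.78, against 0.25 in Huh7 shEZH2. The part of these shifts in the results below was not tested, and a trait of the control libraries cannot be told apart from one of the hairpin libraries.

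**Figure D2:**
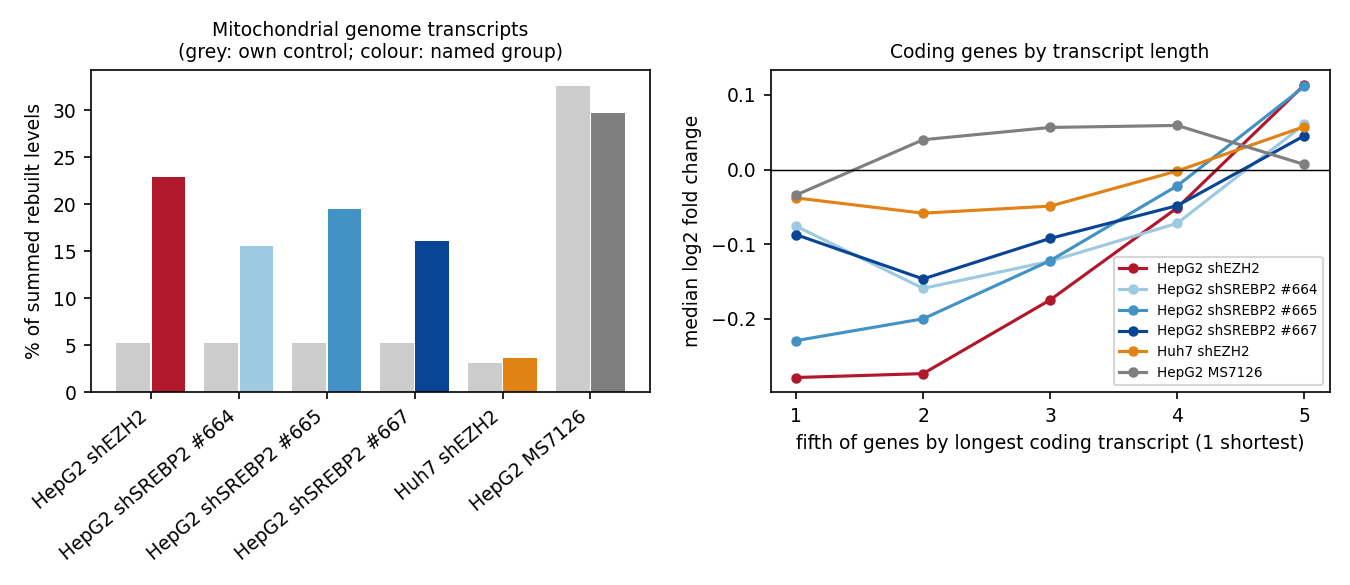
Left, share of summed rebuilt levels (%) from the mitochondrial genome in each group (colour) and its own control (grey). Right, median log2 fold change of protein-coding genes in 5 equal groups by longest coding transcript; the HepG2 shEZH2 medians run from -0.28 in the shortest group to 0.11 in the longest.

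All 22 measured cholesterol synthesis enzymes were lower in the libraries labelled shEZH2, where 30.6% of all genes tested were lower. Their median log2 fold change was -1.10, against 0.01 over all genes tested, and the range was -2.55 to -0.28. With the trend by transcript length removed, 20 were still lower, and the median was -0.97. The pathway fell from its first steps to its last, but not evenly.

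At the start of the pathway, HMGCS1, which makes HMG-CoA, fell from 5294 to 905 normalized counts, at -2.55 ± 0.071 in the authors' deposited table (adjusted p = 4.29e-278). That was the largest fall of the list, and the rebuilt level was 17.1% of the control. ACAT2, which joins acetyl-CoA units in the cytosol, fell from 7738 to 1985, at -1.96 ± 0.058. Among the later mevalonate steps, MVK was at -1.51 ± 0.10, MVD at -1.04 ± 0.064 and IDI1 at -1.77 ± 0.08 in the authors' deposited table. FDFT1, which commits the pathway to sterols, fell from 10035 to 3485 normalized counts, at -1.53 ± 0.052. SQLE, which makes the squalene epoxide, and LSS, which closes its rings, were at -1.08 ± 0.058 and -1.28 ± 0.08. Of the late enzymes, NSDHL fell most, from 1758 to 448 normalized counts, at -1.97 ± 0.11. GGPS1, which feeds protein prenylation in place of sterols, was the least changed member at -0.28 ± 0.10.

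**Figure D3:**
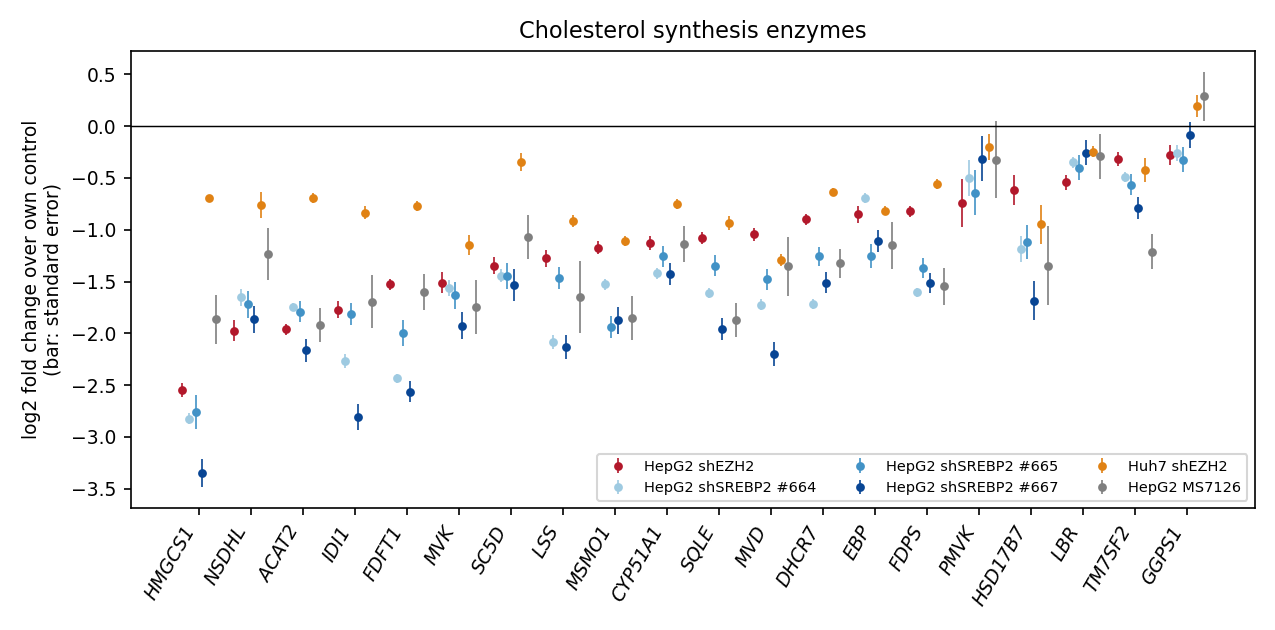
Log2 fold change of 20 of the 22 cholesterol synthesis enzymes over their own control in 6 deposited tables, with standard errors as bars. The HepG2 shEZH2 points (red) all lie below 0, from -2.55 for HMGCS1 to -0.28 for GGPS1.

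Other sterol-linked genes did not move as 1 group. Of 13 measured SREBP factors and sterol-responsive genes, 6 fell and 2 rose, where 30.6% of all genes tested were lower and 29.9% higher. The median of the 13 was 0.06, or -0.28 when the groups were scaled to equal totals, against -0.34 over all genes tested under that scaling. SREBF1, which drives fatty acid synthesis, fell from 3608 to 1651 normalized counts, at -1.13 ± 0.068 in the authors' deposited table. STARD4, a carrier of cholesterol inside the cell, was at -1.05 ± 0.12. INSIG2 and SCAP, which hold and escort the SREBP proteins, rose, at 0.44 ± 0.072 and 0.29 ± 0.069 in the authors' deposited table, but neither did with the groups scaled to equal totals.

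Promoters of 3 strongly lowered enzymes and of SREBF2 are shown because the sterol genes moved while SREBF2 itself did not pass the test. The 3 were picked by size of fall among enzymes whose window held a CCAAT box, and not every enzyme's promoter was considered. IDI1, which fell more than MVK, had no CCAAT there and was passed over. Each run is the 250 bases before the RefSeq start (GRCh38.p14), read 5′ to 3′ on the gene's strand. Capitals mark CCAAT, the box bound by NF-Y, and TCACCCCAC, one spelling of a sterol regulatory element, on either strand. The windows are chr5:43313413-43313662 (minus strand), chrX:152830813-152831062 (plus), chr12:109573544-109573793 (plus) and chr22:41832855-41833104 (plus).
HMGCS1: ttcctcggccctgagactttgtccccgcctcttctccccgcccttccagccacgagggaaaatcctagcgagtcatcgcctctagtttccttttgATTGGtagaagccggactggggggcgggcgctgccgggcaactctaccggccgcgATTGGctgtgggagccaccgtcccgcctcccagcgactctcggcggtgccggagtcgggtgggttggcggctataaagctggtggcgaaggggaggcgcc
NSDHL: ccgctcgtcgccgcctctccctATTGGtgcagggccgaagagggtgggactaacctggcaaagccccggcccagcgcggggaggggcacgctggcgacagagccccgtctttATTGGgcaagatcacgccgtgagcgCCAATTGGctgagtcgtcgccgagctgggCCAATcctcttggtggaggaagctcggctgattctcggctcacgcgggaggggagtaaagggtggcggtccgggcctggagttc
MVK: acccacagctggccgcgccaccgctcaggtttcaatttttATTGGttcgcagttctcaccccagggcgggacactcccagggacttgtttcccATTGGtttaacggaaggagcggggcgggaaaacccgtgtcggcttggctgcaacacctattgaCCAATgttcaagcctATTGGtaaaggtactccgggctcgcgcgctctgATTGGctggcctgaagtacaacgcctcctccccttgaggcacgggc
SREBF2: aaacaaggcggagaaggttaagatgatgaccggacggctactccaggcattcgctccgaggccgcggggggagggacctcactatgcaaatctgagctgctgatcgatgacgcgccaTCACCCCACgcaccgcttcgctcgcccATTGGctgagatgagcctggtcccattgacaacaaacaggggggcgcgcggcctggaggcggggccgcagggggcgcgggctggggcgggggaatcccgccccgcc
In windows of 300 bases that add 50 after the start, CCAAT was found in 12 of 17 cholesterol synthesis promoters (70.6%) and in 36.8% of the 10855 promoters of genes tested. Other lists also held it often: 75% of mitosis, 60% of ATF4 target, 58.3% of DNA replication and 44.4% of fatty acid synthesis promoters. TCACCCCAC was found in none of the 17 cholesterol synthesis promoters, in 0.350% of all promoters, and once in that of SREBF2. A match is a string of letters, not a measured binding site.

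The sterol enzymes were also lower in the other tables. The SREBP2 hairpins 664, 665 and 667, with the shared control, had 22, 22 and 19 of the 22 enzymes lower, where 28.7%, 21.3% and 19.8% of all genes tested were lower, with medians of -1.58, -1.41 and -1.77 in the authors' deposited tables. HMGCS1 was at -2.82, -2.76 and -3.35 there, and FDFT1 at -2.44, -2.00 and -2.57. Huh7 shEZH2, which shares no library, had 20 of 22 lower with a median of -0.75, where 12% of genes tested were lower. The HepG2 estimate was below the Huh7 one for 14 enzymes and above it for 1, against 31.6% and 22.1% of the 11367 genes tested for that difference. For HMGCS1 the difference was -1.85 ± 0.078 (SE; adjusted p = 2.74e-121 by the normal test), and the 1 enzyme with a weaker fall in HepG2 was MVD, at 0.25 ± 0.089 (adjusted p = 0.0114).

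MS7126, a compound that degrades EZH2 protein, was given to HepG2 at 5 uM for 48 h with DMSO as control, and that table shares no library either. It had 19 of 22 enzymes lower, where 8.06% of genes tested were lower, with a median of -1.35 in the authors' deposited table. For 14 of the 22 the difference from the libraries labelled shEZH2 did not pass the test, 6 were higher in the shEZH2 estimate and 2 lower, against 18.1% and 23.8% of the 12232 genes tested. The FDFT1 difference had a 95% interval of -0.28 to 0.43.

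Of 22 fatty acid synthesis genes 13 were lower and 6 higher, with a median of -0.38, where 30.6% of all genes tested were lower and 29.9% higher. FADS2, a desaturase of polyunsaturated fatty acids, fell from 3058 to 922 normalized counts, at -1.73 ± 0.079 in the authors' deposited table. SCD, which makes monounsaturated fatty acids, fell from 37763 to 17549, at -1.11 ± 0.037, and ACLY and FASN, which supply acetyl-CoA and build palmitate, were at -1.11 ± 0.048 and -0.85 ± 0.038. Of 18 fatty acid oxidation and PPARA target genes 10 were higher and 6 lower, the latter a share near that of all genes. CPT1A, the gate for fatty acid entry into mitochondria, rose from 744 to 4299 normalized counts, at 2.53 ± 0.073. CREB3L3, a liver factor of lipid metabolism and fasting, rose from 1009 to 6048, at 2.58 ± 0.071, and PPARA was at 1.51 ± 0.11 in the authors' deposited table.

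Many secreted liver products were higher, where 29.9% of all genes tested were higher and 30.6% lower. Of 13 apolipoprotein genes 11 rose and none fell, with a median of 0.55. With the groups scaled to equal totals 9 rose and 3 fell, where 2998 of the 16094 genes tested rose and 7461 fell. APOA1, the main protein of HDL, rose from 195332 to 575591 normalized counts, at 1.56 ± 0.034 in the authors' deposited table. APOC3, an inhibitor of triglyceride clearance, rose from 5734 to 24330, at 2.09 ± 0.039. APOE was at 0.77 ± 0.031 and APOM at 1.25 ± 0.04. Of 28 plasma proteins made by hepatocytes 16 rose and 8 fell, a share of falls near that of all genes, but this split was 10 against 12 with equal totals. ALB, serum albumin, rose from 176783 to 458996, at 1.38 ± 0.033, and TTR, a carrier of thyroid hormone, from 20250 to 36476, at 0.85 ± 0.033, while SERPINA3 fell, at -0.83 ± 0.038. Coagulation and complement genes had 17 of 29 higher and 4 lower, with KNG1 at 2.86 ± 0.15 and F10 at 1.75 ± 0.045 in the authors' deposited table. With equal totals 9 of the 29 rose and 7 fell. Their median was then 0.21 and that of the plasma proteins -0.01, against -0.34 over all genes tested.

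**Figure D4:**
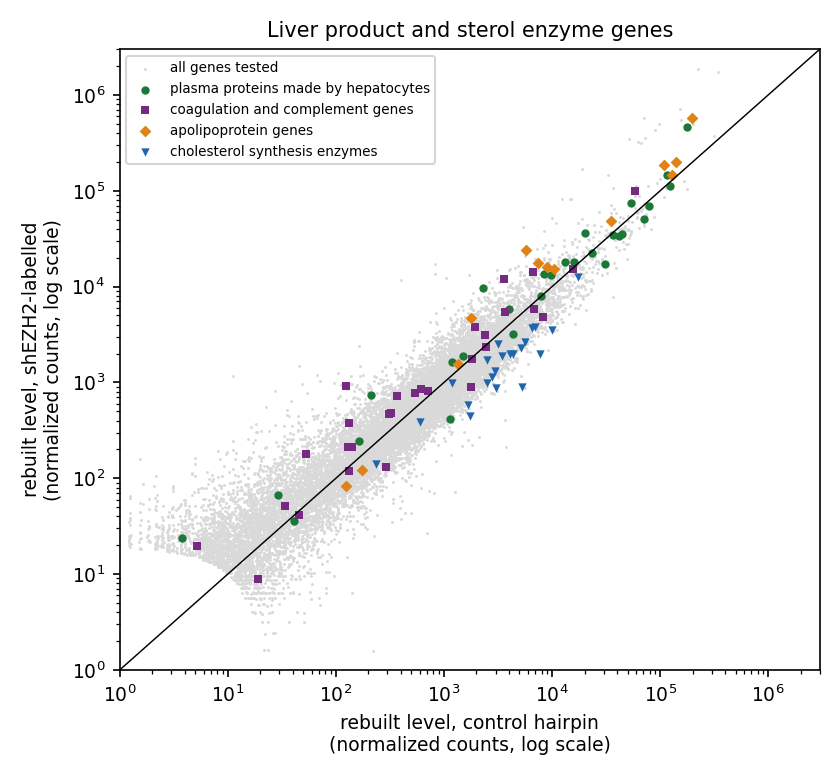
Rebuilt level in the control (x) and in the libraries labelled shEZH2 (y), in normalized counts on log axes, for genes at 1 or more in both; the line marks equal levels. APOA1 and ALB lie above the line at the top right, and the cholesterol synthesis enzymes (blue triangles) lie below it.

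Other hepatocyte programs were mixed, against the same 29.9% and 30.6% over all genes. Xenobiotic and bile acid genes had 10 of 20 higher and 2 lower, with GSTA1, a glutathione transferase, from 111 to 946 normalized counts, at 3.10 ± 0.15 in the authors' deposited table. Urea cycle and gluconeogenesis genes had 9 of 14 higher and none lower, with PCK1, a rate-controlling step of glucose production, from 38.9 to 351, at 3.17 ± 0.25. With equal totals 7 of the 14 were higher and 4 lower. Hepatocyte transcription factors had 4 of 18 higher and 8 lower: CEBPA fell from 3488 to 1019, at -1.78 ± 0.078, and ONECUT2 rose, at 1.92 ± 0.10. Biliary and progenitor markers had 10 of 17 lower and 3 higher, with KRT19, a keratin of bile duct cells, from 21713 to 8278, at -1.39 ± 0.039 in the authors' deposited table, and CD24 at -1.93 ± 0.081. With equal totals 3 of the 18 transcription factors were higher and 12 lower, and none of the 17 biliary and progenitor markers was higher and 14 were lower. Over all 16094 genes tested 2998 were higher and 7461 lower under that scaling. In bulk RNA a change in the cells present and a change in RNA per cell cannot be told apart.

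The apolipoprotein genes did not show this in the other tables without shared libraries. In Huh7 shEZH2 1 of 11 apolipoprotein genes was higher, where 11.9% of genes tested were, and 5 lower, where 12% were. The HepG2 estimate was above the Huh7 one for 10 of 11, against 22.1% of genes tested for the difference. For APOA1 the difference was 1.81 ± 0.043 (SE) and for ALB 1.91 ± 0.035. Under MS7126 none of 12 apolipoprotein genes was higher, where 7.44% of genes tested were, and 7 were lower, where 8.06% were. The shEZH2 estimate was above that of MS7126 for 11 of 13, against 18.1% of genes tested for the difference. Beside the shared control, 12, 7 and 11 of 13 were higher with the SREBP2 hairpins 664, 665 and 667, where 26.1%, 19.6% and 19% of genes tested were higher. Over all genes tested 28.7%, 21.3% and 19.8% were lower with those hairpins. Plasma proteins made by hepatocytes had 17 of 28 higher and 6 lower with hairpin 664, 4 of 27 higher and 13 lower with 665, and 10 of 27 higher and 10 lower with 667. The medians of that list were 0.58, -0.40 and 0.14 with those hairpins, and 0.34 in the libraries labelled shEZH2. Its member TTR was at -1.16, -0.37 and -0.35 in the authors' deposited tables, near the lowest value of -1.18 with 664. FABP1, a fatty acid carrier outside that list, was at -0.56, -0.39 and -0.17. The libraries labelled shEZH2 had TTR at 0.85 and FABP1 at 0.84.

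Genes of DNA replication were mostly lower, with 32 of 44 lower, 6 higher and a median of -0.64, where 30.6% of all genes tested were lower and 29.9% higher. TYMS, which makes thymidylate for DNA, fell from 5581 to 884 normalized counts, at -2.66 ± 0.071 in the authors' deposited table. PCNA, the sliding clamp, fell from 20295 to 9529, at -1.09 ± 0.046, and MCM3 of the replicative helicase from 8851 to 4278, at -1.05 ± 0.049. RFC1, the large subunit of the clamp loader, rose from 2677 to 7268, at 1.44 ± 0.058. Mitosis genes had 19 of 35 lower and 6 higher: CCNB1 fell, at -0.98 ± 0.058, while TOP2A rose from 17534 to 46285, at 1.40 ± 0.04, and CENPE was at 1.34 ± 0.076. With equal totals 29 of the 35 mitosis genes were lower and 5 higher, where 7461 of the 16094 genes tested were lower and 2998 higher. In Huh7 shEZH2 10 of 44 replication genes were lower, where 12% of genes tested were. The HepG2 estimate was below the Huh7 one for 29 and above it for 5, against 31.6% and 22.1% of genes tested for the difference. It was below that of MS7126 for 7 and above it for 11, shares not far from the 23.8% and 18.1% over all genes. Under MS7126 itself 19 of 44 replication genes were lower and 0 higher, where 8.06% and 7.44% of genes tested were. With SREBP2 hairpins 664, 665 and 667, which share the control, 29, 31 and 22 of 44 were lower and 3, 2 and 2 higher. Over all genes tested with those hairpins 28.7%, 21.3% and 19.8% were lower and 26.1%, 19.6% and 19% higher.

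Promoters of lowered cell cycle genes that hold a motif are shown for GINS2, a helicase subunit at -1.52 ± 0.091, RFC3, a clamp loader subunit at -1.26 ± 0.10, CENPA, the centromeric histone at -1.13 ± 0.12, and CCNB2, cyclin B2 at -0.99 ± 0.10, in the authors' deposited table. Capitals mark TTTCCCGC and TTTGGCGC, spellings of the E2F site, in GINS2 and RFC3, and TTTGAA, a cell cycle homology region, in CENPA and CCNB2, on either strand. The windows are chr16:85688955-85689204 (minus strand), chr13:33817899-33818148 (plus), chr2:26785806-26786055 (plus) and chr15:59104896-59105145 (plus), in the same build and length as above.
GINS2: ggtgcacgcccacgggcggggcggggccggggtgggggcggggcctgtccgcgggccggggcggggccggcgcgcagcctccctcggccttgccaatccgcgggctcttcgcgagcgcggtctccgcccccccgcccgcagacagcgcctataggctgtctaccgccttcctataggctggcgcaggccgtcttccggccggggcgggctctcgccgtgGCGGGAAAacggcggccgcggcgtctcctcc
RFC3: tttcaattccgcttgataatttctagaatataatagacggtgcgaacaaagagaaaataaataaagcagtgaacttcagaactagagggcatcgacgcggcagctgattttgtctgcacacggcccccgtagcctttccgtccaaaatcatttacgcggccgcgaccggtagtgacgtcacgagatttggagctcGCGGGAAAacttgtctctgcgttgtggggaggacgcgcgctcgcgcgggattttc
CENPA: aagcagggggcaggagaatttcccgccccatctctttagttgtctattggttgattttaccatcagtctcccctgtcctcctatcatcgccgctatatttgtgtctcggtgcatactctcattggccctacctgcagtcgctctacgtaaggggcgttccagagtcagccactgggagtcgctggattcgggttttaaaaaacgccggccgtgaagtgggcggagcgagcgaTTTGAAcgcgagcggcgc
CCNB2: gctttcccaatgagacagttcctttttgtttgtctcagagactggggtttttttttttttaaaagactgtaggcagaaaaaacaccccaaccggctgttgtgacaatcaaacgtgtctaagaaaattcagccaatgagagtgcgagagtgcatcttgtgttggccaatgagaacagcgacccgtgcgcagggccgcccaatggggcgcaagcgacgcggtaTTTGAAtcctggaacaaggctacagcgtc
Either E2F spelling was found in 17 of 36 replication promoters (47.2%) and in 3.58% of all 10855. TTTGAA was found in 18 of 28 mitosis promoters (64.3%) and in 9.65% of all.

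Genes of G1 control were lower too, with 11 of 16 CDK inhibitors and G1 cyclins lower and 1 higher. Over all genes tested 30.6% were lower and 29.9% higher. With the trend by transcript length removed, 9 of the 16 were lower and 1 higher. CDKN2B, an inhibitor of CDK4 and CDK6, fell from 179 to 33.6 normalized counts, at -2.41 ± 0.35 in the authors' deposited table, and CDK2 from 1021 to 424, at -1.27 ± 0.13. CDKN1A, the p53-responsive inhibitor p21, fell from 2724 to 1792, at -0.60 ± 0.07, and in Huh7 shEZH2 it was at 1.02. The difference between the lines was -1.63 ± 0.18 (SE; adjusted p = 9.75e-18 by the normal test). CDK6 rose, at 0.94 ± 0.06.

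Lists of protein synthesis and turnover genes had most members lower, where 30.6% of all genes tested were lower and 29.9% higher. Proteasome subunits had 24 of 31 lower and 4 higher with a median of -0.67, with PSMA6 from 10044 to 4514 normalized counts, at -1.15 ± 0.049, and PSMD7 rising, at 1.09 ± 0.061, in the authors' deposited table. Ribosome biogenesis genes had 17 of 24 lower and 4 higher, or 14 lower and 5 higher with the trend by transcript length removed. NCL, nucleolin, was at -0.91 ± 0.033. Unfolded protein response genes had 15 of 22 lower and 5 higher. HSPA5, the main chaperone of the endoplasmic reticulum, fell from 47922 to 28045, at -0.77 ± 0.035, and PDIA6 from 18811 to 7835, at -1.26 ± 0.041. Heat shock genes were mixed, with 5 of 14 higher and 7 lower, or 1 higher and 9 lower with equal totals. ATF4 targets of the amino acid response had 9 of 30 higher and 9 lower, shares near those of all genes, and with equal totals 5 higher and 21 lower. Of the 16094 genes tested 2998 were higher and 7461 lower with equal totals. The ATF4 target median was then -0.41, against -0.34 over all genes tested. Under MS7126 26 of 29 measured ATF4 targets were higher, where 7.44% of genes tested were. The shEZH2 estimate was below that of MS7126 for 24 of 27, against 23.8% of genes tested for the difference, among them TRIB3, at -3.34 ± 0.15 (SE).

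Immediate early genes, which answer growth signals within minutes, had 14 of 19 lower and 2 higher, against 30.6% and 29.9% of all genes tested. With the trend by transcript length removed, 10 of 17 were lower and 1 higher, where 4063 of 12596 genes were lower and 4000 higher. EGR1 fell from 1885 to 826 normalized counts, at -1.19 ± 0.092 in the authors' deposited table, IER2 was at -1.05 ± 0.079, and CCN2 rose, at 0.68 ± 0.051. With the SREBP2 hairpins EGR1 was at 0.24, -0.02 and 0.17. Metallothioneins and zinc genes had 5 of 8 lower and 3 higher, or 5 lower and 1 higher with equal totals. Equal totals put 7461 of the 16094 genes tested lower and 2998 higher. MT1G fell from 2093 to 269.9 normalized counts, at -2.96 ± 0.12, and MT1F from 497 to 85.4, at -2.54 ± 0.21, while MT2A rose from 12870 to 26844, at 1.06 ± 0.039, in the authors' deposited table. MT1G was at 1.12, 0.25 and 2.22 with hairpins 664, 665 and 667. Metallothionein genes are near-identical copies, so the split of reads between them is uncertain.

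Polycomb genes showed no common direction. Of 12 measured PRC2 subunits 6 rose, EZH2 included, and 5 fell, with a median of 0.22, or -0.13 with equal totals. SUZ12, a core subunit, rose from 840.3 to 1264 normalized counts, at 0.59 ± 0.10 in the authors' deposited table, EZH1, the other methylase, was at 0.55 ± 0.23, and EED, which reads the mark, was at -0.07 ± 0.14 and did not pass the test (adjusted p = 0.687). The accessory subunits JARID2, MTF2 and PHF1 rose, at 0.87 ± 0.10, 0.66 ± 0.088 and 0.51 ± 0.10, and PHF19, AEBP2 and EPOP fell, at -0.73 ± 0.10, -0.55 ± 0.13 and -0.78 ± 0.054. With equal totals EZH2, EZH1 and PHF1 no longer passed the test, and EED fell, at -0.42. The histone chaperones RBBP4 and RBBP7 were at -0.97 ± 0.064 and -0.56 ± 0.067. Of 18 measured genes described elsewhere as PRC2-repressed, 5 rose and 4 fell, with a median of -0.02, where 29.9% of all genes tested rose and 30.6% fell. The range of that list was wide, from -2.41 for CDKN2B to 4.90 for IGFBP3. With equal totals 1 of the 18 rose and 10 fell, with a median of -0.37, against -0.34 over all genes tested. Under that scaling 2998 of the 16094 genes tested rose and 7461 fell. Of 8 HOX genes 2 rose, HOXA7 at 1.22 ± 0.42 and HOXC9 at 1.03 ± 0.36, and HOXA4 fell, at -1.27 ± 0.21, in the authors' deposited table. With equal totals neither HOXA7 nor HOXC9 passed the test.

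**Figure D5:**
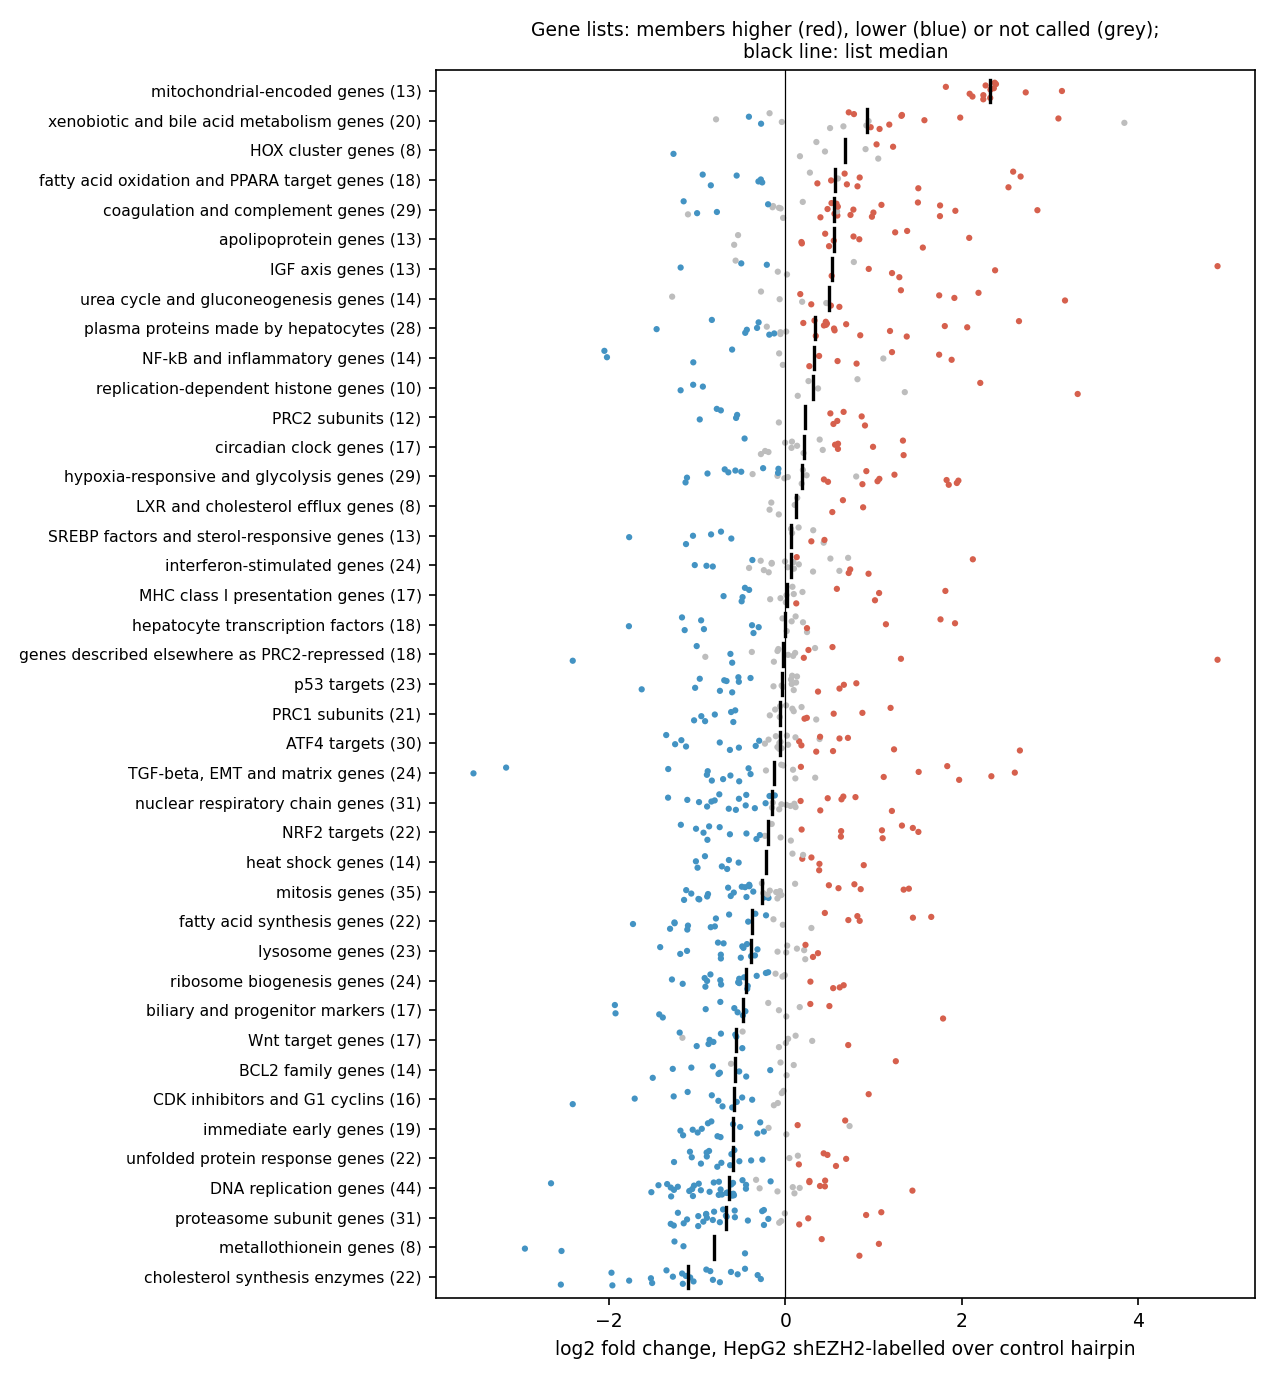
Log2 fold change of each measured member of the gene lists with 8 or more measured members (number in brackets), ordered by list median (black line). Mitochondrial-encoded genes lie at the top with a median of 2.32 and cholesterol synthesis enzymes at the bottom with -1.10.

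Single called protein-coding genes with a mean of at least 100 were also ranked, chosen after their values were seen. Those ranked had a rebuilt level of at least 10 in each group and no hyphen in the symbol. Their standard error exceeded the trend by at most 1 (log2). Of these, IGFBP3, a carrier of insulin-like growth factors, rose most, from 27.5 to 823 normalized counts, at 4.90 ± 0.21 in the authors' deposited table. It was at 4.34, 2.21 and 5.16 with the SREBP2 hairpins, and at 0.32 in Huh7 shEZH2. LCN2, an iron-binding acute phase protein, rose from 71.5 to 1045, at 3.87 ± 0.16. TUBA1A, an alpha-tubulin, fell most among the genes so ranked, from 1279 to 71.8, at -4.15 ± 0.19. COL1A1, a fibrillar collagen, fell from 499.7 to 43, at -3.54 ± 0.26, and TAGLN, an actin-binding protein, from 3689 to 410.2, at -3.17 ± 0.092.

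The largest fold changes among called genes with a mean of 100 or more belonged to annotations near 0 in one group, so levels are given and no fold. UTP14C, TMEM265, AC127459.1, AC073641.1 and ZFP91-CNTF had rebuilt control levels under 3 normalized counts and 276.0 to 1142 in the libraries labelled shEZH2. AL671762.1, ISY1-RAB43, AC026464.4, BOLA2, DERPC, AC073896.1, AC006064.6 and AC068547.1 had the reverse, 222 to 1148 in the control and under 3. Several are read-through or duplicated annotations, for which the split of reads is uncertain. Markers of other cell types were few: of 15 lymphoid and myeloid markers 7 were measured, of 12 fibroblast markers 4, of 10 endothelial markers 4 and of 9 kidney epithelial markers 1. Their summed rebuilt levels were 81993 and 75533 normalized counts in the control and the libraries labelled shEZH2 for the lymphoid and myeloid markers, nearly all from LYZ and CD74. The sums were 2775 and 2671 for fibroblast, 122 and 216 for endothelial, and 319 and 300.0 for kidney markers. Their part in the results was not tested.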

How the data were processed

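Members and gene lists (45 lists) were chosen with earlier results of these data known. STAR 2.4.2, Salmon without a version and the build GRCh38 are named in the submitters' processing notes; for counting options and strand, nothing was given in the sources used here. Per the file headers, the deposited columns follow the DESeq2 layout: per gene, the signal (normalized mean over both groups), the log2 ratio of the groups and its error, the statistic (score), and raw and adjusted p-value. Depth per library is unknown. Of columns with values of single libraries in the 6 tables used, 8 were not used, all in the Huh7 table.

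From these, with Python 3.11.15, pandas 2.3.3 and SciPy 1.17.1, genes with a mean of at least 10 were counted at the authors' adjusted p under 0.05. The control level was rebuilt as the level that, with the fold change, gives the deposited mean. Rebuilt control levels of the HepG2 hairpin tables matched, after scaling, only with the deposited sign. Differences between tables without shared libraries were divided by the root of the summed squared standard errors, tested 2-sided as normal, and Benjamini-Hochberg adjusted over all genes in both tables. Symbols matched GENCODE 29 for 15511 of 16094 genes.

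Named genes were EZH2, SREBF2, the PRC2 subunits, the 12 highest and 12 lowest calls among genes whose mean reached 100, up to 4 called members per list with the smallest adjusted p, the 6 largest excesses of standard error, and 6 genes per direction for each difference. Sterol enzymes outside that rule are named as pathway members, and protein-coding extremes were added after the data were seen. Some named members are not reported here. Promoters are from RefSeq. Alternatives are in the closing section.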

Additional observations from a re-analysis of the deposited data

Results flagged for a closer look

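Some genes had different log2 fold changes in the HepG2 libraries labelled shEZH2 and in Huh7 libraries labelled shEZH2, by a normal test of the difference between the deposited values; each is given as the HepG2 shEZH2 value minus the other, with its SE. The estimate was higher for MT-RNR2, the large mitochondrial rRNA, by 2.85 ± 0.045, ALB by 1.91 ± 0.035, MT-CO2 by 2.21 ± 0.042 and MT-RNR1, the small mitochondrial rRNA, by 2.29 ± 0.044. It was also higher for APOA1 by 1.81 ± 0.043, APOE by 1.73 ± 0.042 and EZH2 by 3.56 ± 0.4. The estimate was lower for TUBA1B, an alpha-tubulin, by -2.33 ± 0.043, COL2A1, a cartilage collagen, by -3.98 ± 0.091 and YBX1 by -1.64 ± 0.046. It was also lower for EIF4G2 by -1.65 ± 0.049, PFN1 by -1.48 ± 0.046 and PCBP1 by -1.93 ± 0.062.

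Some genes had different log2 fold changes in the HepG2 libraries labelled shEZH2 and in HepG2 treated with MS7126, by a normal test of the difference between the deposited values; each is given as the HepG2 shEZH2 value minus the other, with its SE. The estimate was higher for APOA1 by 3.43 ± 0.13, HP, haptoglobin, by 4.31 ± 0.17 and APOC3 by 4.19 ± 0.17. It was also higher for KCNQ1OT1 by 4.73 ± 0.21, PEBP1 by 2.78 ± 0.14 and SULT2A1, a steroid sulfotransferase, by 4.33 ± 0.22. The estimate was lower for TRIB3, a stress-induced pseudokinase, by -3.34 ± 0.15, SMOX by -3.90 ± 0.18 and ODC1, the first enzyme of polyamine synthesis, by -3.17 ± 0.17. It was also lower for IGFBP1 by -3.65 ± 0.21, AIMP2 by -4.40 ± 0.26 and CDC42EP1 by -2.86 ± 0.18.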

How the results depend on the processing

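No paired analysis was possible because the table used holds 1 fold change per gene and no values per library; leaving out each library in turn was not run for the same reason. A fold change of at least 2 left 2295 genes higher and 1188 lower, which is 65.9% higher, against 49.4% without it. Scaling the summed rebuilt levels of the 2 groups to equal totals, an alternative chosen after seeing the data, moved every fold change by -0.35 (log2). The deposited standard errors were kept. That gave 2998 higher and 7461 lower, or 28.7% higher, and leaving the mitochondrial genome out of the totals gave 4532 and 5352. Equal totals also turned ACTA2 to -0.17, and removing the trend with transcript length, also chosen later, turned CD74 to 0.0206 and LYZ to 0.0949. The cause was not tested. The other alternatives (no minimum or a minimum of 100 on the mean, recomputed adjusted p, adjusted p under 0.01, centring, leaving out genes of high standard error) kept both counts within 1.5 times, as did all alternatives for the differences from Huh7 shEZH2 and MS7126. Cholesterol synthesis enzymes were lower for 22 of 22 under both total scalings. Depth per library is unknown, so its limits cannot be given.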
